A study of Homo sapiens with 9 samples.

Results

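The locus described here holds 5 genes of the short arm of human chromosome 5 (band 5p15), chosen by name and position as BASP1, its antisense transcript BASP1-AS1 and the next 3 protein-coding genes toward the end of the arm, MYO10, RETREG1 (older name FAM134B) and ZNF622. They were found by their Ensembl identifiers among the 63677 genes listed for each library. SW480 is a hypotriploid line from a human colorectal adenocarcinoma, and its libraries served as the unmodified reference (genotype WT). SW480-B descends from SW480 cells that received the coding sequence of BASP1 behind a CMV promoter in pcDNA3, and it is 1 clone kept under geneticin selection. SW480-gRNA-B-all carries MS2-P65-HSF1, dCas9-VP64 from a clone of GFP-positive cells, and the pooled sgRNAs against the BASP1 promoter, each brought in by a lentivirus. This arrangement, CRISPR activation (CRISPRa), brings transcriptional activators to a gene without cutting it, and SW480-gRNA-B-all is called the CRISPRa line here. The labels give all 9 samples the treatment BASP1 activation, the parental ones included, and the lines were therefore told apart by title and genotype. A clone with the empty vector and a CRISPRa line without BASP1 guides were not analysed here, so that the guides, the other vectors and the choice of a clone cannot be told apart. Each line gave 3 libraries of poly(A) RNA (n = 3), and nothing in the labels says whether they came from separate cultures, so p-values measure only the spread between these samples.

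BASP1 is a membrane-bound and partly nuclear protein, abundant in growing neurons, that binds the actin-rich cell cortex and acts in the nucleus as a transcriptional corepressor. BASP1-AS1 is a long noncoding RNA read from the opposite strand. MYO10 encodes a myosin that travels to the tips of filopodia, RETREG1 an endoplasmic reticulum (ER) receptor that hands ER sheets to autophagy, and ZNF622 a cytoplasmic factor of late ribosomal 60S subunit assembly.

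In GRCh37, the build of the deposited files, BASP1 (ENSG00000176788) spans chr5:17065707-17276952 on the plus strand. BASP1-AS1 (ENSG00000215196) spans chr5:17089405-17217156 on the minus strand. The main transcript BASP1-201 starts at position 17217740 and BASP1-AS1-201 at 17217156, so that the antisense transcript starts 584 bases upstream and runs away from BASP1-201. MYO10 (ENSG00000145555, chr5:16662016-16936397), RETREG1 (ENSG00000154153, chr5:16473147-16617210) and ZNF622 (ENSG00000173545, chr5:16451628-16465909) lie on the minus strand, 129309, 448496 and 599797 bases from BASP1. Each of the 4 sgRNAs had 1 exact match of its 20 bases in the assembled chromosomes, all on the plus strand within this gap between divergent starts or beside it. The authors describe 4 guides as initially designed. Their scheme of the gene marks fewer than 4 sgRNA sites. Which of the 4 guides the pool in SW480-gRNA-B-all held is not given in the sources used here. The target sites are shown because they fall close to both start sites. They are read from GRCh37, with the PAM in capitals.
sgRNA1: gaggaaccaggatggcggatAGG
sgRNA2: agcggaatcgtagtcgacgtCGG
sgRNA3: gcatttaggaaacgttggcgGGG
sgRNA4: gcactgggcaggaaggggagGGG

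The 4 sites occupy chr5:17217375-17217394 (sgRNA1), chr5:17217009-17217028 (sgRNA2), chr5:17217326-17217345 (sgRNA3) and chr5:17217671-17217690 (sgRNA4). They end 346, 712, 395 and 50 bases upstream of the BASP1-201 start. Seen from the BASP1-AS1-201 start, sgRNA1, sgRNA3 and sgRNA4 lie 219, 170 and 515 bases upstream, and sgRNA2 lies inside the first BASP1-AS1 exon. None of them lies in a BASP1 exon. The 250 bases upstream of the BASP1-AS1 start follow, on the strand of that gene and with sgRNA targets in capitals, because they hold targets between both starts.
BASP1-AS1: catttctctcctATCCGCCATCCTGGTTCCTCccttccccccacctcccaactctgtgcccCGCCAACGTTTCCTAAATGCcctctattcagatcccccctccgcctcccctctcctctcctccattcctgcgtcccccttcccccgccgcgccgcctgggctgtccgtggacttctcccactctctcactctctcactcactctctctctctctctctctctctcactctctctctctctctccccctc

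This stretch (chr5:17217157-17217406, minus strand) holds the sgRNA1 and sgRNA3 targets. In windows around the starts of the other 4 genes than BASP1 (250 bases before, 50 from the start on), the GC box letters GGGCGG, counted on both strands, occurred 8 times at MYO10 and 3 times at RETREG1. They were not found in the windows of BASP1-AS1 and ZNF622. Of 35116 RefSeq promoters of that length, 45% hold the motif. The E-box CACGTG, the TATA letters TATAAA and the TCF core CTTTGAT were in none of the 4 windows, and 7.26%, 11.5% and 2.62% of all promoters hold them. GC content was 58.7% at BASP1-AS1, 78.3% at MYO10, 72.7% at RETREG1 and 63% at ZNF622.

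**Figure D1:**
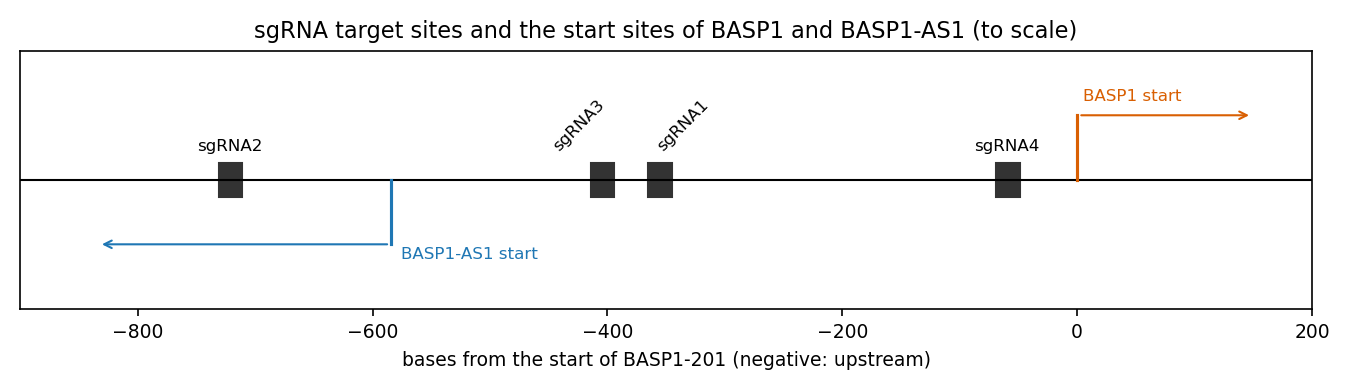
Map of the region between the start sites, with the x axis in bases from the start of BASP1-201. Black boxes are the target sites of the 4 designed sgRNAs, drawn to scale, and arrows give the direction of transcription. The sgRNA1, sgRNA3 and sgRNA4 sites lie between both starts, 346, 395 and 50 bases upstream of BASP1-201.

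Counts on genes were 25238831 to 29355669 per library. Levels are CPM (counts scaled to the size of each library, with TMM factors over the 9 libraries), and 0 counts in a library allow up to between 0.0983 and 0.115 CPM (3 counts, counting error only). The SW480 libraries differed most among themselves: 11.5% to 28% of genes differed by over 2-fold between pairs of them, against 9.49% to 14.2% in SW480-B. SW480-gRNA-B-all replicates 2 and 3 stood apart the other way, with 0.421% such genes and a spread of 1.98 times the sampling variance, where the other pairs of libraries had 26.4 to 95.3 times. They were kept as separate samples, and results are also given with both summed. Of the epithelial markers, EPCAM, KRT8, KRT18, KRT19, CDX2, VIL1 and CDH1 were detected in all 9 libraries. CDX2 was at 2.41 to 5.51 CPM in SW480-gRNA-B-all, 28.9 to 41.7 in SW480 and 58.3 to 67.8 in SW480-B, and VIL1 at 6.45 to 21.4, 98.3 to 327 and 29.5 to 36.1 CPM. VIM, also expressed by SW480, was at 49 to 743 CPM in SW480. Of the markers of other cell types, COL3A1 was at 0 in 9 libraries, PTPRC reached 0.217 and GFAP 0.0676 CPM, COL1A1 was at 2.3 to 10.9 CPM, and ALB reached 35.4 CPM in an SW480 library. The part of these differences in the results below was not tested. In such bulk RNA, fewer cells that express a gene and less RNA per cell cannot be told apart.

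BASP1 itself was high in both modified lines and low in SW480, which checks the labels. In SW480 it was at 11.3, 8.09 and 0.688 CPM in replicates 1, 2 and 3 (345, 233 and 19 counts). SW480-B had 266, 269.9 and 255 CPM, and the CRISPRa line 166, 308 and 305 CPM. No library of a modified line came within the range of SW480, and within SW480 replicate 3 was far below the other libraries. The means were 6.69 ± 5.44 (SD, n = 3), 264 ± 7.95 and 259.8 ± 80.8 CPM. The log2 fold change against SW480 was 5.21 (SE 0.92, edgeR adjusted p = 0.025) in SW480-gRNA-B-all and 5.29 (SE 0.85, edgeR adjusted p = 0.029) in SW480-B. Between both modified lines it was -0.03 (SE 0.24, adjusted p = 0.95), smaller than the spread between replicates.

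A call needed a Benjamini-Hochberg adjusted p below 0.05 together with a change of more than 2-fold. By that rule BASP1 and BASP1-AS1, 2 of the 5 genes, rose in the CRISPRa line against SW480 and 1, MYO10, fell. The calls over all 16100 genes in this comparison were 1.89% higher and 4.66% lower. For SW480-B against SW480, calls among the 4 locus genes that passed the filter were 1 higher (BASP1) and 0 lower, against 0.0931% and 1.25% of 16106 genes. Between the CRISPRa line and SW480-B they were 1 of 5 higher (BASP1-AS1) and 0 lower, against 2.31% and 4.37% of 15846 genes. The first 2 comparisons share the SW480 libraries. BASP1 was raised by design in both modified lines, so its calls against SW480 are not a result about the locus. The share of all genes whose libraries do not overlap between lines was not counted, so statements on overlap only describe the locus genes.

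The call for BASP1 was lost in several fits that leave out a library, and the cause of this was not tested. Without SW480 replicate 3 the log2 fold change was 4.71 (adjusted p = 0.0037) in SW480-gRNA-B-all and 4.76 (adjusted p = 0.00021) in SW480-B. Left out in turn, SW480 replicate 2 gave adjusted p = 0.12 in SW480-gRNA-B-all, and SW480-gRNA-B-all replicates 1, 2 and 3 gave 0.07, 0.086 and 0.089. For SW480-B the adjusted p was 0.11 without SW480 replicate 2 and 0.2, 0.12 and 0.081 without SW480-B replicates 1, 2 and 3. The difference stayed between 4.71 and 5.87 on the log2 scale in the first comparison and between 4.76 and 5.93 in the second.

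Per length, the comparison of the modified lines looks different, because the construct holds the coding sequence alone. Over the 1807 bases of BASP1-201, SW480-gRNA-B-all had 144 ± 44.7 CPM per kb (SD, n = 3). Over the 684 bases of coding sequence, SW480-B had 385 ± 11.6 CPM per kb. The lowest SW480-B library lies above the highest SW480-gRNA-B-all library on this scale. Both lengths are assumed here, and the gap depends on them. The RNA sizes that the authors give from their Northern blot are close to both lengths, 1807 and 684 bases. On that blot, in contrast to the gap per length, they reported comparable levels of the activated BASP1 RNA and the construct RNA. In a further line made with BASP1 guides they mapped the activated start downstream of the regular start, within the same exon. The activated RNA may therefore be somewhat shorter than 1807 bases, though its size on the blot is close to that length. The reason for the difference from the Northern blot was not tested. Gene counts do not separate RNA of the construct from RNA of the chromosomal gene.

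In these libraries BASP1-AS1 separated the modified lines. By qPCR, in contrast, the authors reported no significant activation of BASP1-AS1 in the CRISPRa line. Their primer pair reads a stretch of the transcript, where the counts cover all exons of the gene. The reason why the results differ was not tested. BASP1-AS1 had 0, 0 and 1 counts in the SW480 libraries, 0 in each SW480-B library, and 91, 205 and 229 counts in SW480-gRNA-B-all replicates 1, 2 and 3. The levels there were 3.08, 6.95 and 7.77 CPM (mean 5.93 ± 2.51, SD, n = 3), and none overlapped the other lines. Summed over libraries it was 515-fold higher than in SW480, with an exact 95% counting interval of 92.1 to 20399. It was at least 162-fold higher than in SW480-B, against a floor of 3 counts over the group. Adjusted p from edgeR was 0.0071 against SW480 and 0.0028 against SW480-B. Without SW480 replicate 2 the first was 0.053, and the second stayed between 0.0043 and 0.02 whichever library was left out. In SW480-B against SW480 the transcript failed the filter on low counts, and it was not called with no filter (edgeR adjusted p = 0.66) or with all 9 libraries in 1 fit (edgeR adjusted p = 0.51).

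Within the CRISPRa line, replicate 1 was the lowest for the antisense transcript as it was for BASP1. BASP1-AS1 made up 1.82% (exact 95% interval 1.46% to 2.22%), 2.21% (1.92% to 2.53%) and 2.48% (2.18% to 2.82%) of the fragments on both genes in replicates 1, 2 and 3. Corrected for transcript length (2941 bases against 1807), that is 1.14, 1.39 and 1.57 antisense transcripts per 100 of BASP1, if all are of full length. In the gene models used here, 75 bases, 0.623% of BASP1-AS1 exon bases, lie inside BASP1 exons. The overlap in the older models that were counted was not examined. Whether reads of BASP1 enter the BASP1-AS1 counts was therefore not tested. The libraries kept strand, with 99.1% to 99.4% of reads on the expected one. Whether the counting kept strand too is not known. Of 32 protein-coding genes with at least 95% of their exon bases inside exons of the other strand, 10 had at least 100 counts, and the highest had 52361. These counts cannot settle it, because the overlaps come from gene models newer than those counted.

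MYO10, the next gene, moved the other way in the CRISPRa line. It was at 459, 466 and 289 CPM in SW480, at 439, 323 and 274 CPM in SW480-B, and at 183, 181 and 188 CPM in the CRISPRa line. All 3 libraries of the last line lay below all others, while SW480 and SW480-B overlapped. The means were 405 ± 100.3, 345 ± 84.8 and 184 ± 3.53 CPM (SD, n = 3). The CRISPRa line was lower than SW480, with a log2 fold change of -1.19 (SE 0.23, edgeR adjusted p = 0.03), and the gene was called. Against SW480-B the difference was -0.92 (SE 0.21, edgeR adjusted p = 0.032), which passed the p but not the size of a call. SW480-B against SW480 gave -0.22 (SE 0.30, adjusted p = 0.75).

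Per length, MYO10 was the most abundant of the neighbours in SW480, at 35.4 ± 8.76 CPM per kb of its 11442-base transcript, and fell to 16.1 ± 0.309 in SW480-gRNA-B-all. The call against SW480 held without SW480 replicate 1 or 3 and was lost without SW480 replicate 2 (adjusted p = 0.12), without SW480-gRNA-B-all replicate 1, 2 or 3 (0.092, 0.13 and 0.13), and with replicates 2 and 3 summed (0.13). The value itself stayed between -1.36 and -1.05. Against SW480-B it became a call without SW480-B replicate 3 (-1.07, adjusted p = 0.018), and the adjusted p ranged up to 0.15 with other libraries left out.

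RETREG1 was lower in both modified lines in every library, without passing the test. It was at 11.6, 9.62 and 8 CPM in SW480, at 2.08, 2.47 and 3.81 CPM in SW480-B, and at 4.19, 4.54 and 5.5 CPM in SW480-gRNA-B-all. The 3 lines did not overlap, in the order SW480, SW480-gRNA-B-all, SW480-B, with means of 9.73 ± 1.78, 4.74 ± 0.674 and 2.79 ± 0.909 CPM (SD, n = 3). Such separation was not counted over all genes. Against SW480, 4572 of 16100 genes had an unadjusted edgeR p under 0.05 in SW480-gRNA-B-all, and 2549 of 16106 in SW480-B. The log2 fold change of RETREG1 against SW480 was -1.08 (SE 0.27, edgeR adjusted p = 0.054) in SW480-gRNA-B-all and -1.80 (SE 0.38, edgeR adjusted p = 0.07) in SW480-B. The neighbours in that order, SW480-gRNA-B-all and SW480-B, differed by 0.76 (SE 0.32, adjusted p = 0.18). Without SW480 replicate 3 both differences from SW480 were called (adjusted p = 0.029 and 0.034), as they were by DESeq2 (adjusted p = 0.0021 and 5.2e-05). For SW480-B the same held with no filter (adjusted p = 0.016) and with all 9 libraries in 1 fit (0.018).

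ZNF622 did not differ between lines beyond the spread of their libraries. It was at 67.7, 54.3 and 47 CPM in SW480, at 45, 52.6 and 51 CPM in SW480-B, and at 59.7, 44.5 and 38.9 CPM in SW480-gRNA-B-all. All 3 lines overlapped. The log2 fold changes were -0.29 (SE 0.24, edgeR adjusted p = 0.46) and -0.19 (SE 0.22, edgeR adjusted p = 0.73) against SW480 and -0.06 (SE 0.19, adjusted p = 0.88) between the modified lines. Per length it stood at 33 ± 6.17 CPM per kb in SW480, close to MYO10 there. RETREG1, at 3.03 ± 0.556, was near BASP1, at 3.7 ± 3.01 CPM per kb, in that line.

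**Figure D2:**
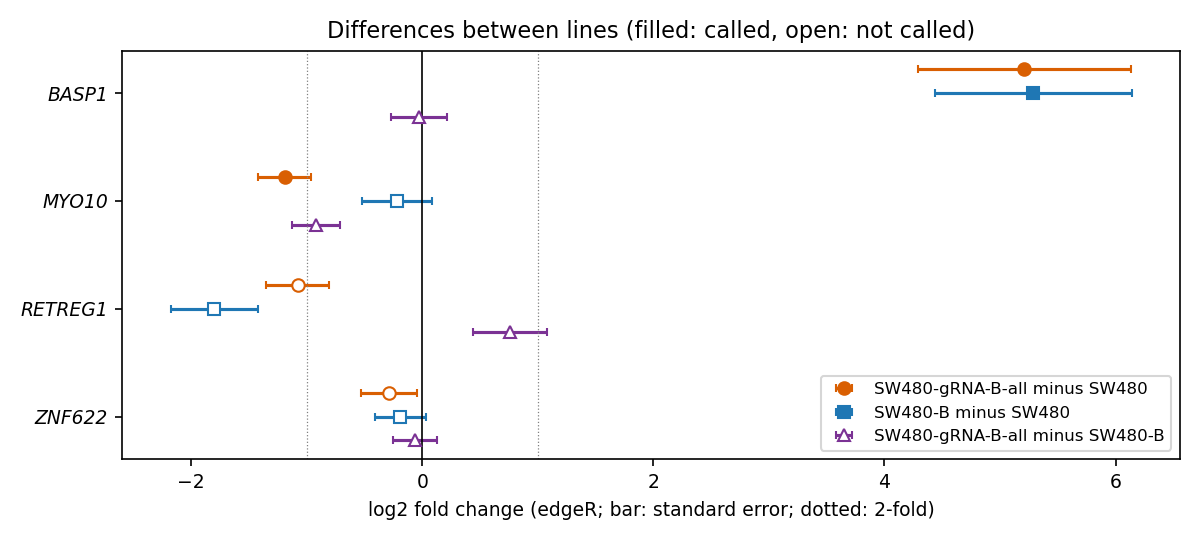
Differences between lines for 4 of the 5 genes, as log2 fold changes from edgeR with standard errors (filled: called, open: not called). BASP1-AS1 is left out because SW480 and SW480-B had 1 and 0 counts. BASP1 stands at 5.21 and 5.29 against SW480, and MYO10 is called in SW480-gRNA-B-all minus SW480, at -1.19.

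Farther out, 18 protein-coding genes in the files lie within 5 Mb of BASP1, itself included, and 6 of them had 0 counts in all libraries. Toward the end of the arm, ANKH, a transporter involved in extracellular pyrophosphate, was at 124, 105 and 60.8 CPM in SW480, 62, 83.6 and 65.5 in SW480-B and 42.7, 32.1 and 32.5 in SW480-gRNA-B-all. It fell in the CRISPRa line against SW480 (log2 fold change -1.48, SE 0.30, edgeR adjusted p = 0.034), and stayed a call in 2 of the 6 fits that leave out a library (adjusted p 0.0073 to 0.14). TRIO, OTULIN, a deubiquitinase of linear chains, its relative OTULINL and DNAH5, an axonemal dynein, were not called by edgeR in any of the 3 comparisons. Their log2 fold changes in SW480-gRNA-B-all against SW480 were -0.17, -0.35, 1.00 and 1.01. For OTULINL the call depended on the setting. DESeq2 called it in the CRISPRa line against SW480 (1.03, adjusted p = 0.021) and against SW480-B (1.32, adjusted p = 0.023). The last comparison was also called by edgeR under the replicate block (1.49, adjusted p = 0.017) and without SW480-B replicate 3 (1.82, adjusted p = 0.04), against 1.32 (adjusted p = 0.11) otherwise.

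Toward the centromere, cadherin genes were detected in SW480 and hardly at all in the modified lines. CDH12, a neuronal cadherin, had 1654, 259 and 78 counts in SW480 replicates 1, 2 and 3, 0, 0 and 1 in SW480-B, and 0 in each SW480-gRNA-B-all library. Summed, SW480 was at least 676-fold higher than SW480-gRNA-B-all and 1872-fold higher than SW480-B (exact 95% interval 336 to 73973, counting error only). SW480 replicate 1 held most of these counts, and without it the values were at least 176-fold and 488-fold (87 to 19341). It was called lower in the CRISPRa line (edgeR adjusted p = 0.045, and in 2 of 6 fits that leave out a library) and in SW480-B (edgeR adjusted p = 0.028, and in 3 of 6). CDH18 had 20, 16 and 8 counts in SW480 and 0 in the other 6 libraries, at least 14.9-fold and 13.8-fold higher in SW480 than in SW480-gRNA-B-all and SW480-B. FBXL7, which encodes an F-box protein and lies toward the end of the arm, had 10, 18 and 0 counts in SW480 and 0 in the others, at least 9.51-fold and 8.78-fold higher. CDH18 and FBXL7 failed the filter on low counts. The nearest gene on this side with counts, FTH1P10, is a copy of FTH1 whose reads may be shared with it, and it was not called.

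**Figure D3:**
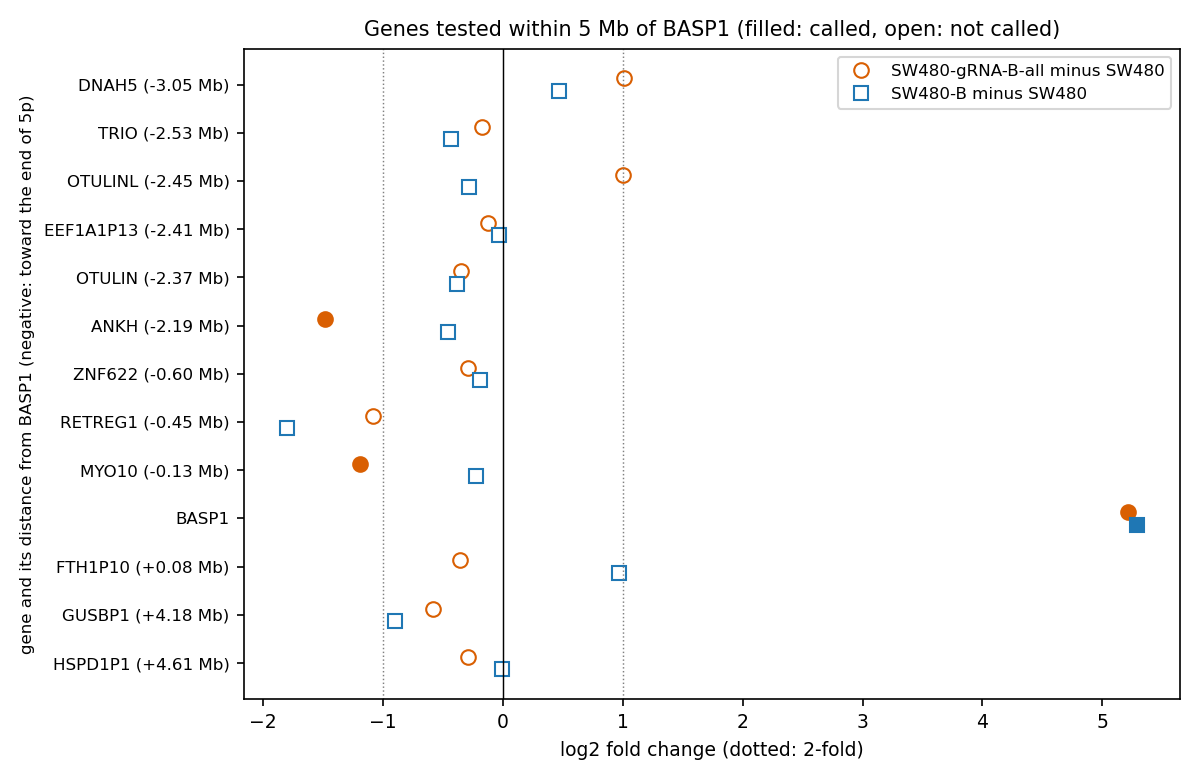
Genes tested within 5 Mb of BASP1 in order along the arm, with log2 fold changes against SW480 (filled: called, open: not called, dotted lines: 2-fold). CDH12 and BASP1-AS1 are left out because of lines at or near 0 counts. ANKH and MYO10 are called lower in SW480-gRNA-B-all, at -1.48 and -1.19, with uncalled genes between them.

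Over the whole 5p arm, the median gene lay below SW480 in both modified lines. Without the 5 genes, 118 genes of 5p could be tested for the CRISPRa line against SW480, of which 31 lay above 0 and 87 below, with a median log2 fold change of -0.35 where all genes had -0.05. Of these 1 was called higher and 9 lower (0.847% and 7.63%, against 1.89% and 4.66% of all genes). In SW480-B against SW480 the median was -0.24 over 115 genes against -0.004 over all genes, with 0 called higher and 3 lower (216 calls over all genes). Between the modified lines it was -0.06 against -0.004. Within 5 Mb, 10 tested genes had medians of -0.32 and -0.33 in the 2 comparisons with SW480. By library, the median deviation of 5p genes from their mean over the 9 libraries was 0.36, 0.21 and 0.05 in SW480 replicates 1, 2 and 3, -0.02, -0.04 and -0.06 in SW480-B and -0.11, -0.08 and -0.13 in SW480-gRNA-B-all. SW480 replicate 3, the library with the lowest BASP1, lay nearest the modified lines. The median stayed below 0 in all 13 and 12 alternative fits of the comparisons with SW480. The number of 5p calls in the CRISPRa line was 24 without SW480 replicate 3, 10 without replicate 1 and 0 without replicate 2. Over all genes these fits gave 2659, 1059 and 8 calls. Without SW480-gRNA-B-all replicates 1, 2 and 3 in turn, there were 1, 0 and 0 calls on 5p and 178, 78 and 76 over all genes. The 5p counts thus moved with the number of calls over all genes.

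The list made for MYO10 holds other genes of filopodia and also the myosins MYO7A, MYO7B and MYO15A. Of this list, 15 were tested in the CRISPRa line against SW480. By edgeR 3 were called higher and 0 lower, with a median of 0.20. Of the 15, 9 lay above 0 and 6 below, on the side of MYO10. Of all genes, 1.89% and 4.66% were called and their median was -0.05. FSCN1, which bundles actin in filopodia, was at 56.2, 88.8 and 61.1 CPM in SW480, 62.6, 102 and 58.1 in SW480-B and 304, 246 and 240.4 in SW480-gRNA-B-all. It rose by a log2 fold change of 1.90 (SE 0.22, edgeR adjusted p = 0.009) against SW480 and of 1.83 (SE 0.24, edgeR adjusted p = 0.0047) against SW480-B, the last in all 6 fits that leave out a library and the first in 5. FMNL3, a formin, was called at 1.21 (SE 0.26, edgeR adjusted p = 0.039) against SW480, and so was MYO15A, a myosin of stereocilia, at 1.76 (SE 0.41, edgeR adjusted p = 0.046) and 0.712 to 1.18 CPM. Each of these calls held in 1 of 6 fits that leave out a library. In SW480-B against SW480, edgeR called 0 of 13 (2 at an unadjusted p under 0.05), with a median of -0.03 where all genes had -0.004. DESeq2 called 2, FMNL3 higher (1.14, adjusted p = 0.024) and EVL, an actin regulator of the Ena/VASP family, lower (-1.46, adjusted p = 0.00056). In edgeR EVL was at -1.44 (SE 0.34, adjusted p = 0.098). Without SW480 replicate 3 edgeR called 3 of the list, while calls over all genes went from 216 to 921.

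Of 11 other ER-phagy receptors and their autophagosome partners, 1 was called higher and 0 lower in each modified line against SW480, with medians of 0.51 and 0.52 where all genes had -0.05 and -0.004. Over all genes 1.89% were called higher in the CRISPRa line and 0.0931% in SW480-B. In both comparisons 9 of the 11 lay above 0, while RETREG1 lay below. The called gene was CALCOCO1, a soluble ER-phagy receptor. It was at 38.1, 42.4 and 42 CPM in SW480, at 165, 158 and 72.3 CPM in SW480-B, and at 190.3, 88.6 and 93.8 CPM in the CRISPRa line. Its log2 fold changes against SW480 were 1.57 (SE 0.32, edgeR adjusted p = 0.034) in the CRISPRa line and 1.70 (SE 0.32, edgeR adjusted p = 0.049) in SW480-B, and each call held in 2 of 6 fits that leave out a library.

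The 9 matched factors that act with ZNF622 in cytoplasmic 60S assembly gave 0 calls in each comparison by edgeR and by DESeq2, with 0, 2 and 0 at an unadjusted p under 0.05 in edgeR and medians of -0.12 (CRISPRa line against SW480), -0.17 (SW480-B against SW480) and -0.09 (between the modified lines). The most abundant, PA2G4, was at 245 ± 61.5, 217 ± 58.1 and 269 ± 22.1 CPM (SD, n = 3) in SW480, SW480-B and the CRISPRa line.

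**Figure D4:**
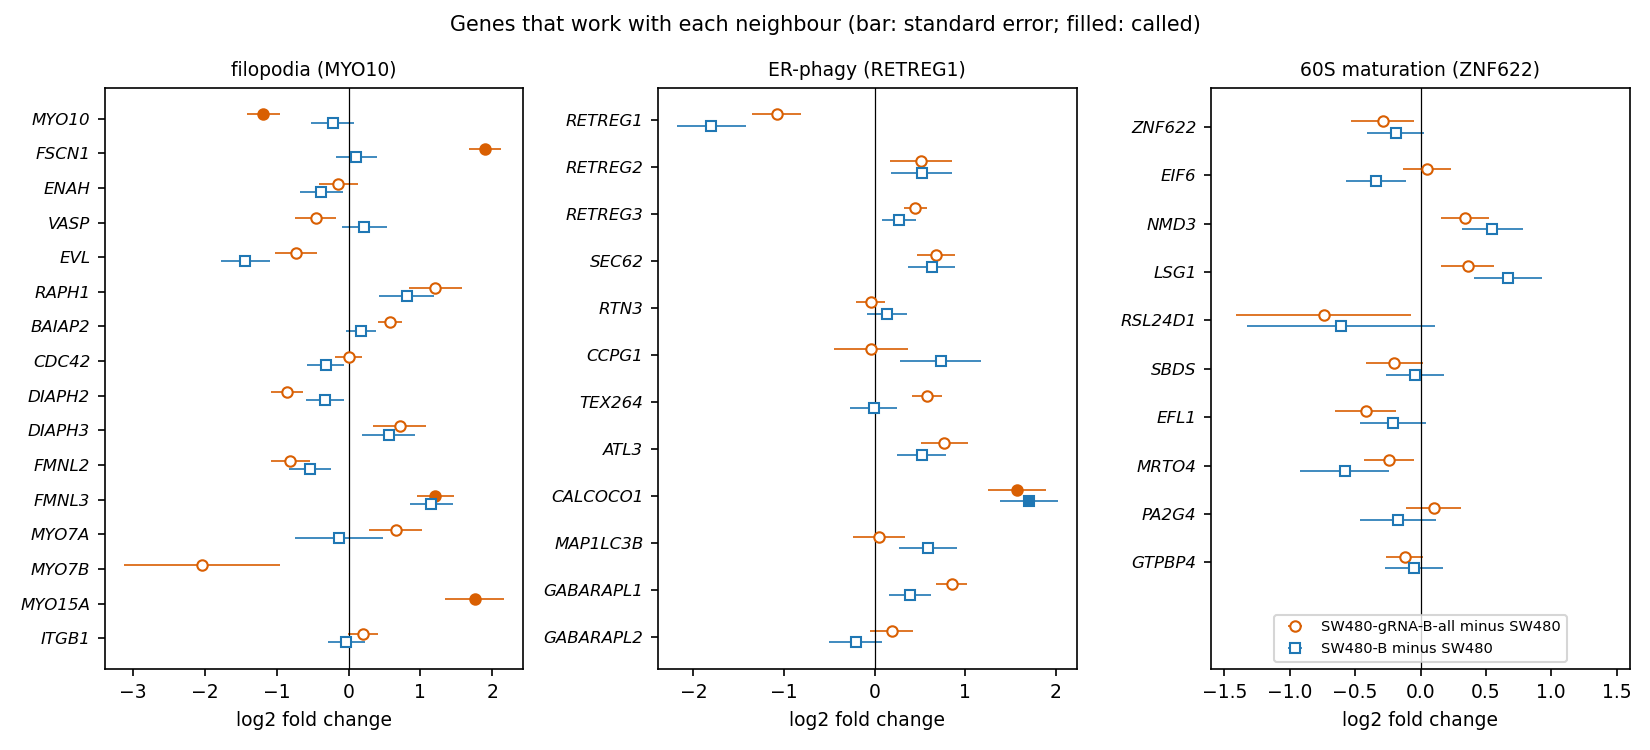
Log2 fold changes against SW480 of the genes listed with each neighbour, with standard errors (filled: called, open: not called). FSCN1, at 1.90, lies opposite to MYO10 in SW480-gRNA-B-all, where 9 of the 15 others on that list lay above 0 and 6 below. CALCOCO1, at 1.57 and 1.70, lies opposite to RETREG1.

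Over the 9 libraries, the genes whose log2 CPM was most like that of BASP1 by Pearson's r, among 14014 genes with a mean of at least 1 CPM, were NKX6-1 (0.971), MR1 (0.931), LINC00910 (0.930), ENSG00000267009 (0.930) and CNKSR3 (0.929). The most opposite were DKK4 (-0.946), a WNT antagonist, PKD1-AS1 (-0.942) and GJA1 (-0.938), a gap junction protein. The 9 points are libraries of 3 lines and are not independent. MYO10 was most like RUNX1 (0.992), a transcription factor, at 192, 148 and 72.9 CPM in SW480, SW480-B and the CRISPRa line. Next came IFITM10 (0.986) and UBN2 (0.981). RETREG1 was most like COX5A (0.975), TOP2B (0.973) and SSBP4 (0.972). ZNF622 was most like TSEN15 (0.962), RCHY1 (0.961) and ADO (0.958). None of these genes lies on chromosome 5.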

How the data were processed

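Poly(A) RNA of 3 libraries of each line was sequenced in pairs on an Illumina NovaSeq instrument. For each library the authors deposited raw counts, whole fragments on each Ensembl gene after alignment to GRCh37, with no normalization. The counting program and its strand setting are not given in the sources used here. The 5 lines at the end of each file that name no gene (5.22% to 9.93% of a library on no gene, 3.09% to 3.44% on more than 1) were left out of sizes and tests. The deposited Picard metrics gave the strand share.

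Symbols, positions and transcript lengths came from GENCODE v44 lifted to GRCh37, whose gene models are newer than those counted. Each pair of lines was fitted over its own 6 libraries in edgeR 4.0.16 under R 4.3.3, with filterByExpr (least count 10, least total 15), TMM factors and the robust quasi-likelihood test. Adjustment was by Benjamini-Hochberg over all genes, and a call needed an adjusted p under 0.05 and a change above 2-fold. The standard error is the log2 fold change over the square root of F. CPM use TMM factors over 9 libraries. The code was tested on simulated data, where the share of changed genes that edgeR had to recover was missed in SW480-B against SW480, and the criterion was replaced after that was seen, so that changes can be missed there. Alternatives were RLE factors, no filter, at least 1 CPM in 3 libraries, a joint fit of the 9 libraries, a block for the replicate number, DESeq2 1.42.0, each library left out, summing SW480-gRNA-B-all replicates 2 and 3, and calls of any size.

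Same-numbered libraries of SW480-B and SW480 deviated together from the means of their lines (r = 0.308, 0.407 and 0.417), and the labels do not say what a number marks. All samples carry the same batch label. Named genes are the 5 locus genes, protein-coding genes within 5 Mb, up to 4 called members of each partner list or else its most abundant, and those most like each locus gene over the libraries, with log2 CPM at a prior count of 2. FTH1P10 and EVL were named after their values were seen. AFG2A and PECAM1 were not matched. The locus genes and lists were chosen with earlier results of these data known. The promoter sequence of BASP1 is not reported here.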

Additional observations from a re-analysis of the deposited data

Results flagged for a closer look

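BASP1-AS1 differed between the modified lines, which were both compared with SW480. The direct comparison of SW480-gRNA-B-all with SW480-B gave a fitted log2 fold change of 10.39 (edgeR adjusted p = 0.0028), a size that depends on the prior count because SW480-B had 0 counts. It was higher in 3 of 3 libraries.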

How the results depend on the processing

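Of 192 alternative values for the locus genes, 163 kept their direction and side of the call, 17 lost the call, 8 gained it and 4 changed sign. With no filter, BASP1 lost its call in the CRISPRa line (5.28, adjusted p = 0.079) and SW480-B (5.28, 0.15) against SW480. With CRISPRa replicates 2 and 3 summed, BASP1 (5.11) and MYO10 (-1.16) lost theirs. RETREG1 was called by DESeq2 at -1.05 in the CRISPRa line and -1.82 in SW480-B against SW480, and in SW480-B with no filter at -1.82 and with all 9 libraries in 1 fit at -1.84. MYO10 between the modified lines was called at any size (-0.92). With 1 library left out, the log2 fold changes against SW480 in SW480-gRNA-B-all ranged from 4.71 to 5.87 for BASP1, 8.06 to 10.44 for BASP1-AS1, -1.36 to -1.05 for MYO10 and -1.19 to -0.90 for RETREG1. In SW480-B they ranged from 4.76 to 5.93 for BASP1 and from -2.09 to -1.63 for RETREG1. Between the modified lines they ranged from -0.15 to 0.22 for BASP1, -1.07 to -0.70 for MYO10 and -0.25 to 0.09 for ZNF622, which was 0.05 with replicates summed. The cause of these shifts was not tested.

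Numbers of calls moved more than the values. Against SW480, SW480-gRNA-B-all had 1055 calls, 2100 by DESeq2, 97 with replicates summed, and 8 to 2659 with 1 library left out. SW480-B had 216, with 735 under no filter, 143 at 1 CPM in 3 libraries, 452 with 9 libraries in 1 fit, 953 by DESeq2, and 0 to 921 with 1 library left out. The modified lines had 1059 between them, 654 with 9 libraries and 446 with replicates summed, and 420 to 1548 with 1 library left out. The replicate block gave 1199, 319 and 1389 calls and changed no call of a locus gene; same-numbered deviations correlated at 0.321, -0.0375 and 0.326 between the CRISPRa line and SW480, and at 0.274, -0.12 and 0.31 between the modified lines, so the numbers were not taken to pair these. Of 380 medians and counts over lists, 89 moved by more than the spread or by over 1.5 times.

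Among the other genes named, with 1 library left out, these uncalled values changed sign: in SW480-gRNA-B-all against SW480, TRIO (-0.36 to 0.07) and PA2G4 (-0.06 to 0.27); in SW480-B against SW480, OTULINL (-0.80 to 0.11), FSCN1 (-0.17 to 0.31) and PA2G4 (-0.36 to 0.03); between the modified lines, FMNL3 (-0.10 to 0.23) and CALCOCO1 (-0.53 to 0.12, and 0.11 with replicates summed). The counts of 0 and 1 for BASP1-AS1 outside the CRISPRa line limit its fold to a bound or a wide interval.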
